A study of Arabidopsis thaliana with 6 samples.

Results

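The transcripts of the 3 Aurora kinase genes of Arabidopsis thaliana, AUR1 (AT4G32830), AUR2 (AT2G25880) and AUR3 (AT2G45490), and of the replication gene PRL (AT4G02060) were examined in whole plants of wild type and of the mutant sni1. The 4 genes were taken by their symbols in the platform annotation, without any requirement on signal, and each had 1 probe set (a set of short probes for 1 transcript) on the ATH1 array. They are 4 of 13286 genes with a named probe set, and 4 of 22746 probe sets that are not controls. The wild-type group was accession Col-0, and the sni1 group carried a radiation-induced mutation in the Col-0 background, which the labels assign to AT4G18460. Each genotype had 3 arrays, and no other treatment separated the groups. All seeds had 3 days of cold at 4 °C, and all plants were raised in commercial soil at 22 °C to growth stage 3.90, at which the rosette has reached its full size. The labels do not say how many plants a sample held or whether the samples came from separate sowings, so the p-values rest on a spread between arrays that may be technical. By its title, the study set out to compare transcription in the mutant with that in wild type.

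Aurora kinases are serine/threonine kinases of mitosis that phosphorylate histone H3 and act in spindle and chromosome behaviour. In Arabidopsis AUR1 and AUR2 are closely related alpha-type kinases of the spindle and the forming cell plate, needed to orient formative divisions, and AUR3 is the beta-type kinase of the centromeres. PRL (PROLIFERA) encodes MCM7, a subunit of the ring-shaped MCM helicase that is loaded on replication origins and unwinds DNA in S phase. Transcripts of these genes are known from dividing cells, such as those of meristems and young organs. SNI1 is known to hold back systemic acquired resistance, a plant defence state, and is also a component of the SMC5/6 complex, which acts in DNA repair. In RNA of whole plants, fewer dividing cells and less transcript per cell cannot be told apart.

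The values are MAS5 signal intensities on a linear scale, which the authors had scaled so that the trimmed mean of each array was about the same. Array medians ran from 34.6 to 40.8. The 2 arrays with replicate number 3 had the lowest medians, 34.6 in wild type and 36.7 in sni1, and also the lowest 10th percentiles, 1.81 and 1.89 against 3.34 to 4.31 on the other arrays. Fold changes are differences of log2(value + 2.8668), sni1 minus wild type, where the added constant is the 10th percentile of all values. They were tested with limma over all 22746 probe sets with a threshold of 0.05 on the adjusted p. The number of arrays limits the precision.

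None of the 4 genes differed between sni1 and wild type beyond the spread between arrays. The genotypes overlapped in each of the 4, while they did not overlap in 12.5% of all probe sets. Of the 4 genes 0 passed the limma threshold (52 probe sets, 0.229% of all, did), and 0 had an unadjusted p under 0.05 (6.92% of all probe sets had). Log2 fold changes lay between -0.44 for PRL and 0.26 for AUR3. With the replicate number as a block in the model, 0 of the 4 passed again (4.02% of all probe sets did), and 1, PRL, had an unadjusted p under 0.05, as 17.7% of all probe sets had.

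**Figure D1:**
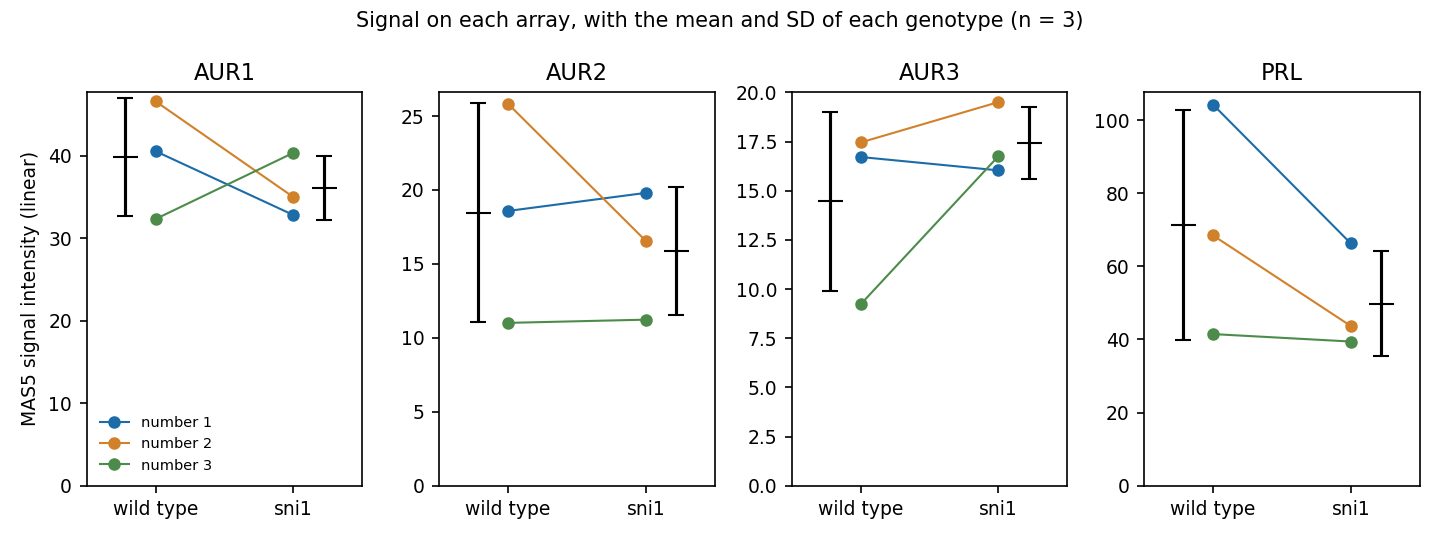
MAS5 signal intensity (linear scale) of AUR1, AUR2, AUR3 and PRL on each of the 6 arrays, with lines joining arrays of the same replicate number and black bars giving the mean ± SD of each genotype (n = 3). The genotypes overlap in all 4 genes, and PRL is lower in sni1 within each replicate number.

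AUR1 signal was 40.6, 46.6 and 32.4 on the wild-type arrays with replicate numbers 1, 2 and 3, and 32.8, 35.0 and 40.4 on the sni1 arrays with the same numbers. The lowest array was a wild-type one and so was the highest, and the sni1 arrays lay between them. The means ± SD (n = 3) were 39.9 ± 7.17 for wild type and 36.1 ± 3.89 for sni1. The log2 fold change of AUR1 was -0.12 with an SE of 0.23 (limma adjusted p = 0.977), and a two-sided exact permutation test, which cannot go below 0.1 with 3 arrays against 3, gave p = 0.6. Its 95% interval, from -0.65 to 0.40, corresponds to 0.639-fold to 1.32-fold on the scale with the constant added. Within replicate numbers 1 and 2 the sni1 array was lower (log2 differences of -0.28 and -0.39), and within number 3 it was higher (0.30).

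AUR2, the other alpha-type kinase, had signals of 18.6, 25.8 and 11.0 on the wild-type arrays and of 19.8, 16.6 and 11.2 on the sni1 arrays, in the order of the replicate numbers. Arrays of both genotypes shared the low end, at replicate number 3, and the highest array was wild type with replicate number 2. The AUR2 means ± SD (n = 3) were 18.5 ± 7.41 for wild type and 15.9 ± 4.33 for sni1. The log2 fold change was -0.15 with an SE of 0.36 (limma adjusted p = 0.984, exact permutation p = 0.8). The 95% interval, from -0.99 to 0.68, reached 0.504-fold at its low end and 1.60-fold at its high end. Nearly all of the difference came from replicate number 2, where sni1 was lower by a log2 difference of -0.56, against 0.080 and 0.023 within numbers 1 and 3. Without wild-type replicate 2 the AUR2 fold change was 0.091.

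AUR3, the beta-type kinase, stood at 16.7, 17.5 and 9.22 on the wild-type arrays and at 16.0, 19.5 and 16.8 on those of sni1. Wild-type replicate 3 was apart at the low end, and the other arrays of both genotypes lay close together. The means ± SD (n = 3) were 14.5 ± 4.56 for wild type and 17.4 ± 1.83 for sni1. The log2 fold change was 0.26 with an SE of 0.31 and a 95% interval from -0.46 to 0.98 (limma adjusted p = 0.954, exact permutation p = 0.5). AUR3 was the one of the 4 genes with a higher mean in sni1. Without wild-type replicate 3 its fold change was 0.021, so that array decided the value.

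The mean signals of AUR2 (17.2) and AUR3 (15.9) over the 6 arrays lay under 24.5, the 40th percentile of probe set means, while those of AUR1 (38.0) and PRL (60.6) lay above it. For AUR2 and AUR3 the added constant is a larger part of the signal, and their fold changes are understated more. With no constant added they were -0.17 and 0.32.

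PRL had the largest difference between the genotypes among the 4 genes. Its signal was 104, 68.5 and 41.5 on the wild-type arrays and 66.3, 43.7 and 39.4 on the sni1 arrays, in the order of the replicate numbers. Each sni1 array was lower than the wild-type array of the same number, but sni1 replicate 1 exceeded wild-type replicate 3. The means ± SD (n = 3) were 71.4 ± 31.5 for wild type and 49.8 ± 14.4 for sni1. The log2 fold change was -0.44 with an SE of 0.34 and a 95% interval from -1.23 to 0.36 (limma adjusted p = 0.918, exact permutation p = 0.4). The log2 differences within replicate numbers were -0.63, -0.62 and -0.068. Of the 4 genes, PRL was the one in which all 3 pairs went one way, as was so for 39.8% of all probe sets, and in 20.7% of all probe sets the 3 pairs were lower in sni1.

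With the replicate number as a block, the PRL difference kept its size and its standard error went from 0.34 to 0.17, which gave a 95% interval from -0.83 to -0.043 and an unadjusted p of 0.0338 in limma. Adjusted over all probe sets it did not pass (limma adjusted p = 0.234). For the Aurora kinase genes the block changed the standard errors less, and the adjusted p were 0.826 for AUR1, 0.844 for AUR2 and 0.717 for AUR3. Without wild-type replicate 1, the array with the highest PRL signal, the PRL fold change was -0.13, and without wild-type replicate 3 it was -0.77, in fits with no block.

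**Figure D2:**
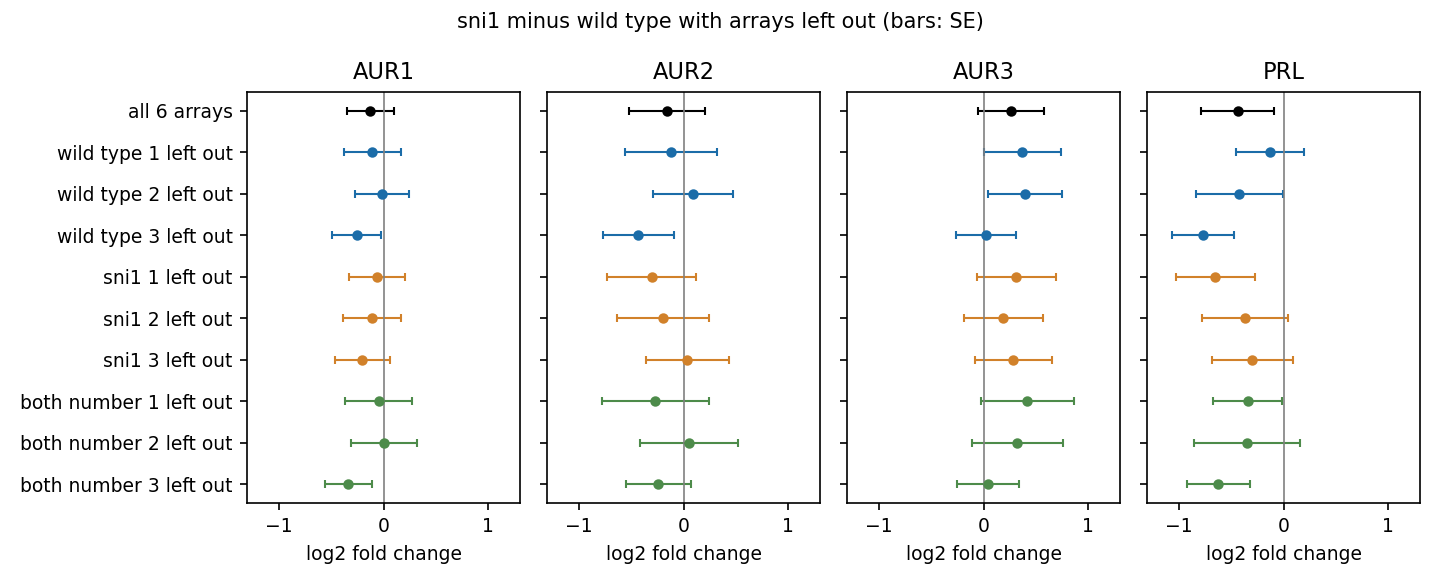
Log2 fold change, sni1 minus wild type, of each of the 4 genes with all 6 arrays, with 1 array left out, and with both arrays of a replicate number left out (points; bars give the SE from limma without the replicate block). PRL stays below 0 throughout, from -0.77 to -0.13, and AUR3 above 0, from 0.021 to 0.42, while AUR1 and AUR2 lie on both sides of 0.

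PRL signal also differed between the replicate numbers. Averaged over both genotypes it was 85.3 in number 1, 56.1 in number 2 and 40.5 in number 3, and number 1 was the highest and number 3 the lowest in each genotype. The range of the 3 number means was 0.99 on the log2 scale (limma F test of the replicate number, adjusted p = 0.0363), against a median range of 0.51 over all probe sets, of which 15.7% passed this test. After quantile normalization between arrays the PRL range was 0.89 (adjusted p = 0.0405). The call rested on limma's intensity trend (adjusted p = 0.163 without it, where 0 probe sets passed). It was also lost without wild-type replicate 1 (range 0.67, adjusted p = 0.198), 2 (0.0580) or 3 (0.126) and without sni1 replicate 1 (0.0731). The labels do not say what the replicate numbers stand for.

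AUR1 varied little between the replicate numbers, with means of 36.7, 40.8 and 36.4 and a range of 0.15 (limma adjusted p = 0.888). AUR2 means were 19.2, 21.2 and 11.1, a range of 0.76 that did not pass (adjusted p = 0.290), and AUR3 means were 16.4, 18.5 and 13.0 (range 0.47, adjusted p = 0.623). The arrays of number 3, where AUR2 was lowest, were those with the lowest 10th percentiles. The AUR2 range was 0.43 after quantile normalization, 0.40 after cyclic loess and 0.58 after median centring. The AUR3 range was 0.15 after quantile normalization, 0.14 after cyclic loess and 0.30 after median centring. The PRL range was 0.91 after cyclic loess and 0.85 after median centring.

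**Figure D3:**
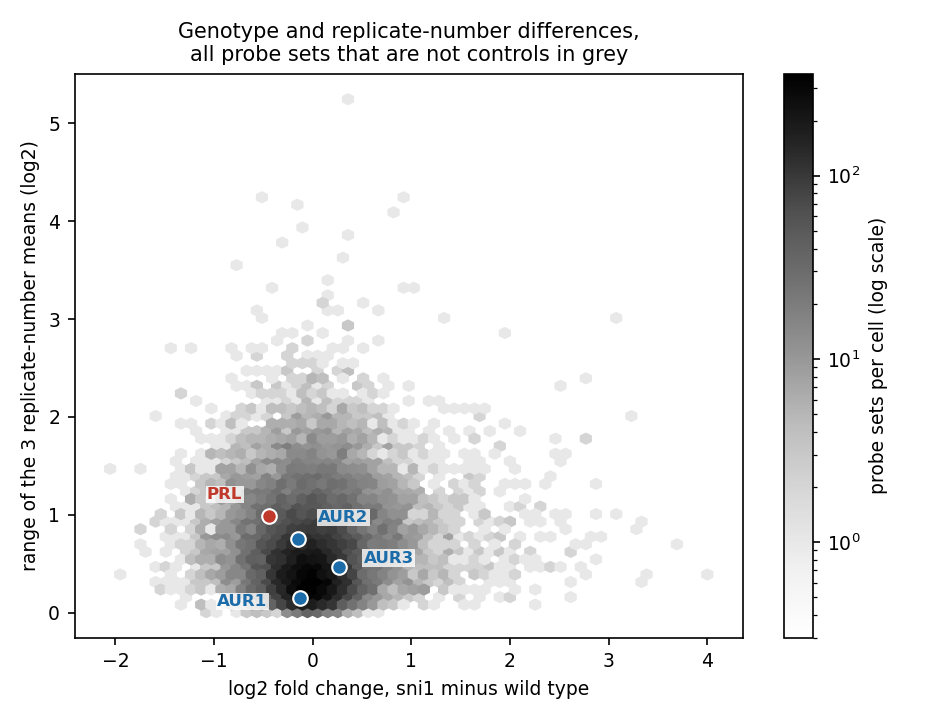
Range of the 3 replicate-number means (log2, vertical) against the log2 fold change of sni1 minus wild type (horizontal) for all 22746 probe sets (grey cells, darker for more probe sets) with the 4 genes marked. The Aurora kinase genes lie within the dense part of the cloud, and PRL, at -0.44 and 0.99, lies to the left of them and higher.

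Other genes of the cell cycle were compared through lists of DNA replication, mitosis, Aurora kinase partners and G1 control, with 107 genes in all. Apart from the 4 genes themselves, 10 listed genes had a named probe set, and 6 further genes were added from the annotation by their symbols. Of these 16 genes 0 passed the limma threshold (0.229% of all probe sets did) and 0 had an unadjusted p under 0.05 (6.92% of all had). With the replicate block 0 passed, against 4.02% of all probe sets, and 2 had an unadjusted p under 0.05, against 17.7%. The genotypes overlapped in all 16, and did not overlap in 12.5% of all probe sets. Of the G1 control list, which holds the E2F, retinoblastoma-related and D-type cyclin genes, 0 of 17 had a named probe set.

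In 14 of the 16 genes the mean log2 value was lower in sni1, with a median log2 fold change of -0.23, while 52.3% of all probe sets were lower and their median was -0.018. The count was also 14 of 16 with the arrays centred on their medians, after cyclic loess and after quantile normalization. It fell to 10 without wild-type replicate 2, 11 without sni1 replicate 3 and 12 without wild-type replicate 1. Without both arrays of number 2 it was 10 (median -0.084), and without both of number 3 it was 13. It rose to 15 without wild-type replicate 3, sni1 replicate 1 or sni1 replicate 2. Only 8 of the 16 genes reached the intensity filter, and 7 of those 8 were lower in sni1 (median -0.17). The median over the 16 genes was -0.38 within replicate number 1, -0.33 within number 2 and 0.12 within number 3. In 5 of the 16 genes all 3 pairs went one way, against 39.8% of all probe sets, and 1 of the 5, CDC27a, was higher in sni1. Of the 4 genes described above, AUR1, AUR2 and PRL had lower means in sni1 as well, and AUR3 did not.

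**Figure D4:**
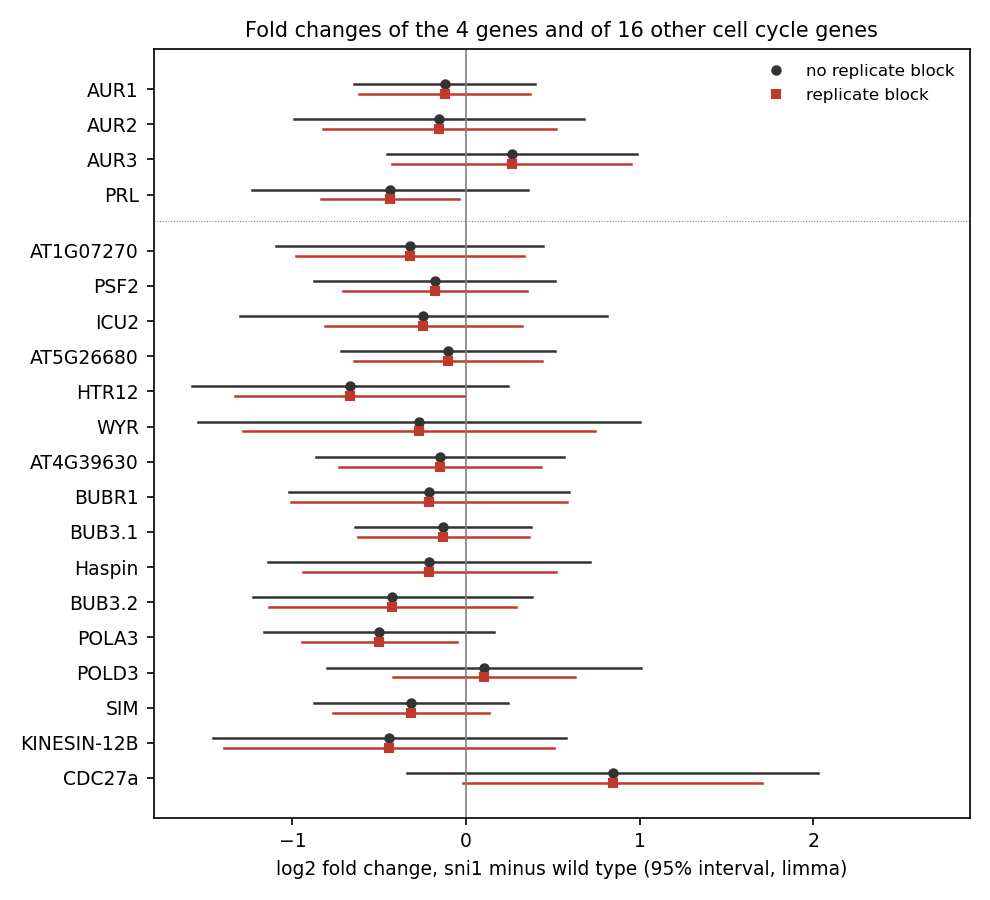
Log2 fold change, sni1 minus wild type, with its 95% interval from limma, for the 4 genes (above the dotted line) and the 16 other cell cycle genes, without the replicate block (black) and with it (red). Every interval without the block spans 0, and with it those of PRL, HTR12 and POLA3 lie below 0 before adjustment for the number of probe sets.

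Among the replication genes, which act with PRL, ICU2 encodes the catalytic subunit of DNA polymerase alpha. ICU2 signal was 47.1, 29.6 and 13.7 on the wild-type arrays and 31.0, 26.2 and 13.5 on the sni1 arrays, in the order of the replicate numbers. As with PRL, number 1 was highest and number 3 lowest in both genotypes. Each sni1 array was below its wild-type partner, within number 3 by a log2 difference of only -0.019. The ICU2 fold change was -0.25 ± 0.46 (SE; limma adjusted p = 0.977), and its number means differed by 1.32 on the log2 scale (limma F test adjusted p = 0.0436). Among the 16 genes it was the 1 call between replicate numbers, while 15.7% of all probe sets passed this test. That call was lost after quantile normalization (range 1.08, adjusted p = 0.0889), median centring (1.18, adjusted p = 0.0584) and cyclic loess (1.09, adjusted p = 0.0836), and without the intensity trend (1.32, adjusted p = 0.125). It was also lost with each of the 6 arrays left out, where the range was 1.04 to 1.60 and the adjusted p 0.0791 to 0.185.

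POLA3, another subunit gene of DNA polymerase alpha, had signals from 54.3 to 101 in wild type and from 39.6 to 69.9 in sni1 (log2 fold change -0.50 ± 0.29; limma adjusted p = 0.850, and 0.230 with the block). The fold changes of PSF2, a subunit of the GINS complex that travels with the MCM helicase, of AT1G07270 and of AT5G26680 were -0.18, -0.32 and -0.10. POLD3, a subunit of DNA polymerase delta, stood at 0.10. None of these passed in limma without or with the block.

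The partners of the Aurora kinases and the spindle checkpoint genes ranged in mean signal over the 6 arrays from 2.61 for BUBR1 to 32.4 for BUB3.1, and BUB3.1 and AT4G39630 (25.7) lay above the 40th percentile of 24.5. WYR encodes the plant relative of INCENP, the scaffold of the chromosomal passenger complex in which Aurora kinases act, and Haspin is a kinase that, like the Aurora kinases, phosphorylates histone H3. Their mean signals were 6.87 for WYR and 20.4 for Haspin, and their fold changes were -0.27 ± 0.55 and -0.21 ± 0.40 (SE). BUBR1, BUB3.1 and BUB3.2, of the checkpoint that holds chromosome separation, stood at -0.21, -0.13 and -0.43, and AT4G39630 at -0.15. The adjusted p of these 6 genes were 0.922 or more in limma.

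Of the mitosis list, HTR12 was the gene other than the Aurora kinases with a named probe set. HTR12 encodes the centromeric histone H3 at the site where AUR3 acts. Its signal was 33.3, 13.3 and 20.08 on the wild-type arrays and 18.5, 10.02 and 9.29 on the sni1 arrays, lower in sni1 within each replicate number, with overlap between the genotypes. The fold change was -0.67 ± 0.39 (SE; limma adjusted p = 0.860, and 0.281 with the block). KINESIN-12B, a motor of the phragmoplast, had a fold change of -0.44 and a mean signal of 4.16, and SIM, an inhibitor of cyclin-dependent kinases that favours endoreduplication, one of -0.32. CDC27a, a subunit of the anaphase-promoting complex, had the largest positive value, 0.84 ± 0.51 (limma adjusted p = 0.864, and 0.293 with the block). Its signals were 1.72 to 15.9 in wild type and 11.6 to 17.4 in sni1. Within each replicate number CDC27a was higher in sni1 (log2 differences of 0.76, 0.11 and 1.66).

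Markers of tissues that hold dividing cells had named probe sets only in part, and the 8730 probe sets unnamed here may hold others. CLV3, which marks the stem cells of the shoot meristem, was the marker with a named probe set of 6 for that tissue. CLV3 signal was 10.2, 2.37 and 2.76 on the wild-type arrays and 2.94, 2.64 and 1.55 on those of sni1. Wild-type replicate 1 was apart at the high end, and the other arrays of both genotypes overlapped at low signal, near the added constant. The log2 fold change of CLV3, -0.48, did not pass in limma (adjusted p = 0.929, and 0.557 with the block). Of 8 genes listed for the stomatal lineage 4 had a named probe set, with a summed signal of 234 to 330 in wild type and of 151 to 209 in sni1. Most of that sum was STOMAGEN, a leaf peptide that promotes stomata, with means of 207 in wild type and 99.0 in sni1. The lower sum in sni1 was thus mainly that of STOMAGEN. STOMAGEN fell with the replicate block (log2 fold change -1.02, limma adjusted p = 0.0233) and did not pass without it (0.237). The division-competent stages are marked by SPCH and MUTE, whose low means were slightly lower in sni1. They were 6.05 in wild type and 5.39 in sni1 for SPCH, and 9.45 and 7.72 for MUTE. FMA, which acts at the last division of the lineage, went the other way from the sum, with signals of 52.2, 57.4 and 45.0 on the wild-type arrays against 72.4, 60.2 and 59.3 on those of sni1. The FMA genotypes did not overlap, as in 12.5% of all probe sets, and its log2 fold change of 0.30 did not pass in limma (adjusted p = 0.875, and 0.379 with the block). The 2 root markers of 8 with a named probe set summed to 7.69 to 24.4 in wild type and to 10.2 to 28.1 in sni1. Leaf mesophyll and flower markers had 0 named probe sets, so the label of whole plant could not be checked through them. The part of these tissues in the values of the 4 genes was not tested.

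The 5 measured reference genes lay between -0.15 and 0.11 on the log2 scale, and none passed in limma without or with the block.

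The genes whose profiles were most like those of the 4 were found by the root mean square difference of log2 values, each centred on its own mean over the 6 arrays, among named genes with a mean signal of at least 24.5. For PRL these were LUL4 (a difference of 0.13), AT1G80850 (0.13) and AT3G51470 (0.13), where PRL itself varied about its mean by 0.48. AT1G80850 had signals of 121, 84.6 and 52.4 on the wild-type arrays and of 93.3, 68.5 and 52.1 on the sni1 arrays. Of 7278 genes compared with PRL, 48 lay within 0.2. For AUR1, which varied by 0.18 about its mean, 1072 genes lay within 0.2, the nearest being AT1G56230 (0.039), AT4G14240 (0.050) and AT1G63730 (0.055). The nearest to AUR2 were AT4G08940 (0.060), AT4G27270 (0.079) and AT4G39970 (0.083), and to AUR3 AT2G31740 (0.051), AT3G45210 (0.061) and ATATH8 (0.067). None of these is on the cell cycle lists. Only 8 of the 16 other cell cycle genes reached a mean signal of 24.5 and could be found this way, as AUR2 and AUR3 could not. With so few among 7278 genes, their absence carries no information.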

How the data were processed

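The deposited table holds 1 signal intensity per probe set and array on a linear scale. The submitters' processing notes name MAS5, and its version is not given in the sources used. The authors' scaling shows in the values, since the trimmed mean of each array is 100.01 (2% cut at each end). Control probe sets (64) were left out of the tests. Names came from the platform annotation, updated through TAIR10.1 gene identifiers, and 13436 probe sets had 1 locus, 503 had several genes and 8730 were unnamed here.

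Wild type and sni1 were compared on log2(value + 2.8668) with limma 3.58.1 in R 4.3.3 (linear model and moderated variances that follow the intensity), two-sided, with Benjamini-Hochberg adjustment over all 22746 probe sets and no intensity filter. Figures were drawn with matplotlib 3.10.9. The procedure was run on simulated data with changes larger than those of the 4 genes. That run does not show whether changes of their size would be found. Groups and replicate numbers came from the sample titles. Deviations of same-numbered arrays from their genotype means correlated across probe sets (0.37, 0.30 and 0.46), so the numbers pair the samples by the data, not by a statement in the labels.

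The 4 genes, the lists, the tests and the rule for named genes (the 4 genes, every listed gene with a single-gene probe set, and the 3 nearest profiles of each of the 4) were chosen with earlier results of these data known. A further 6 genes were added from the annotation. Where a locus had several probe sets, the brightest on average was used. Alternatives changed the constant, the filter, the normalization, array weights, the arrays used, the trend of variances and the replicate block. Those for replicate numbers and lists were added after seeing the data, as was the block on arrays centred by median or loess.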

Additional observations from a re-analysis of the deposited data

How the results depend on the processing

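The 4 genes stayed short of the threshold in limma under every alternative run (adjusted p from 0.123 upwards, the lowest being PRL with the replicate block and the intensity filter). PRL kept its direction in 22 of 22 alternatives (-0.77 to -0.13) and AUR3 in 20 of 20 (0.021 to 0.42). AUR1 kept it in 21 of 22 and AUR2 in 17 of 20, the exceptions being fits with fewer arrays. With arrays left out AUR1 ran from -0.33 to 0.0067 and was above 0 without replicate number 2, and AUR2 ran from -0.43 to 0.091 and was above 0 without wild-type replicate 2 (0.091), sni1 replicate 3 (0.038) or replicate number 2 (0.051). AUR2 and AUR3 have no value under the intensity filter, which removes them. With the replicate block no call on the 4 genes changed. The range of PRL between replicate numbers was 0.99 without the intensity trend, where it did not pass, and 0.67 to 1.31 with 1 array left out, passing in 2 of these 6 fits. The other 3 genes kept their side of the threshold between replicate numbers.

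Over all probe sets the count past the threshold was 52 and depended on the model. It was 83 with cyclic loess, 8 without the intensity trend and 102 with array weights. With the replicate block it was 914, and 1071 with quantile normalization, 1369 with the filter, 926 with median centring and 1074 with cyclic loess added to the block. With arrays left out it was 0 to 44. The causes were not tested. Of the 16 other cell cycle genes 0 passed in each of the 22 alternatives, and their median ran from -0.41 to -0.084. With 3 arrays a genotype, changes smaller than the intervals given cannot be shown, and the low signals of AUR2 and AUR3 add to that.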
